A study of Mus musculus with 6 samples.

Results

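The genes described here encode the proteins of the cytosolic ribosome. Genes named Rpl or Rps followed by a number were taken from the deposited table together with *Rplp0*, *Rplp1*, *Rplp2* and *Rpsa*, and 83 of 24445 genes were kept. Of 101 candidate names, 10 Rps6k kinases, 2 pseudogenes and 4 paralogs under 10 counts (*Rpl3l*, *Rpl10l*, *Rpl32l* and *Rpl39l*) were dropped. *Rps19bp1* and *Rps23rg1* were also left out, since they are named after a ribosomal protein gene but encode other proteins. The 83 genes comprised 50 of the large and 33 of the small subunit. The 6 genes *Rpl7l1*, *Rpl22l1*, *Rpl36al*, *Rpl37rt*, *Rps27l* and *Rps27rt* are paralogs or retrogenes.

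RNA was measured in bone marrow-derived macrophages (BMDMs) of female C57Bl/6J mice. Precursors were differentiated for 7 days with L929-conditioned medium, and all libraries used here came from cells given 100 U/mL IL-4 for 24 h. The groups were AclyM-KO, in which Lyz2-Cre deletes a floxed exon 9 of *Acly* in myeloid cells, and Ctrl (Acly fl/fl, AclyM-WT in the labels), with 3 libraries each. The sources describe these once as biological replicates and once as technical replicates of pooled mice, so the p-values below measure the spread between libraries. Summed over the 1 row kept per gene, libraries had 12151975 to 14739689 counts for Ctrl and 14745614 to 15587283 for AclyM-KO. Over all rows of the deposited table they had 21827302 to 26589331 and 26342251 to 28089781.

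Ribosomes are built from ribosomal RNA and a fixed set of proteins, of which the large subunit forms peptide bonds and the small subunit reads the mRNA. Most ribosomal protein mRNAs start with a run of pyrimidines, the 5′ terminal oligopyrimidine (TOP) tract, through which mTORC1 and the binding protein Larp1 control their translation. Their genes are short, strongly expressed and have many processed pseudogenes, which carry near-copies of the mRNA sequence.

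The targeted gene followed its labels. *Acly*, which makes cytosolic acetyl-CoA from citrate, had read counts scaled to library size (CPM) of 332, 321 and 350 in Ctrl and of 146, 134 and 136 in AclyM-KO. All AclyM-KO values were lower than all Ctrl values, with a log2 fold change of -1.27 ± 0.05 (SE) and an adjusted p of 5.22e-10 by the quasi-likelihood test of edgeR with Benjamini-Hochberg adjustment. The count covered the whole transcript, so exon 9 itself could not be read.

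Ribosomal protein mRNAs were slightly more abundant in AclyM-KO BMDMs. They took 0.496%, 0.470% and 0.474% of the counts on the kept rows in Ctrl libraries 1 to 3. In those of AclyM-KO they took 0.512%, 0.516% and 0.511%. The groups did not overlap, and the means of 0.480% ± 0.0143 and 0.513% ± 0.00273 (SD, n = 3 each) gave a ratio of 1.07. Ctrl library 1 lay closest to the AclyM-KO libraries. The large subunit took 0.281% ± 0.00859 and 0.3004% ± 0.00294, and the small subunit 0.199% ± 0.00608 and 0.212% ± 0.000851 (SD, n = 3 each). The ratio of large to small subunit counts was 1.41 ± 0.0192 in Ctrl and 1.42 ± 0.0169 in AclyM-KO (SD, n = 3 each).

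Of the 83 genes, 75 passed the filter on low counts. With edgeR, 18 of these were higher in AclyM-KO at an adjusted p under 0.05, or 24%, while 12.4% of all 12023 genes tested were called higher. None was called lower, against 12.6% of all genes tested. The count lower at an unadjusted p under 0.05 was also 0 with edgeR, and DESeq2 called 0 lower. The median log2 fold change was 0.12 for the ribosomal protein genes and 0.001 for all genes tested, and 59 values were above and 16 below 0. Above the Ctrl mean lay 58, 25 and 33 of the 75 genes in Ctrl libraries 1 to 3. In those of AclyM-KO the counts were 56, 65 and 58, so Ctrl library 1 showed a similar split. The median log2 fold change was 0.07 for the 29 ribosomal protein genes with 500 or more counts in every library. Over the ribosomal protein genes it was 0.05 once the trend with transcript length was subtracted. All 3 AclyM-KO libraries exceeded all 3 Ctrl libraries for 24 ribosomal protein genes (20.5% of all genes tested), and all were below them for 0 (19.8% of all genes tested). The changes were small, and 4 of the 18 passed the fold change limit of the study, log2 above 0.58, a limit that 2.98% of all genes tested passed upwards. *Rpl22l1*, *Rpl30* and *Rpl35* lay just above it, at 0.598, 0.593 and 0.600. Over 16 alternative fits they ran from 0.51 to 0.67, from 0.47 to 0.70 and from 0.46 to 0.74, so the count of 4 depended on the fit. Without AclyM-KO library 2, 11 of 77 tested genes were called higher, while the calls over all genes also fell, to 1002 of 12146. *Rpl23a*, *Rpl36*, *Rpl38* and *Rps27a* passed the filter through the AclyM-KO libraries only, and *Rpl24* through the Ctrl libraries only. Without *Rpl36*, the only one of these that was called, 17 genes were called higher and 3 passed the fold change limit. The large subunit had 12 of 49 tested genes higher with a median of 0.19, and the small subunit 6 of 26 with a median of 0.09. The difference between the subunits was not tested.

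**Figure D1:**
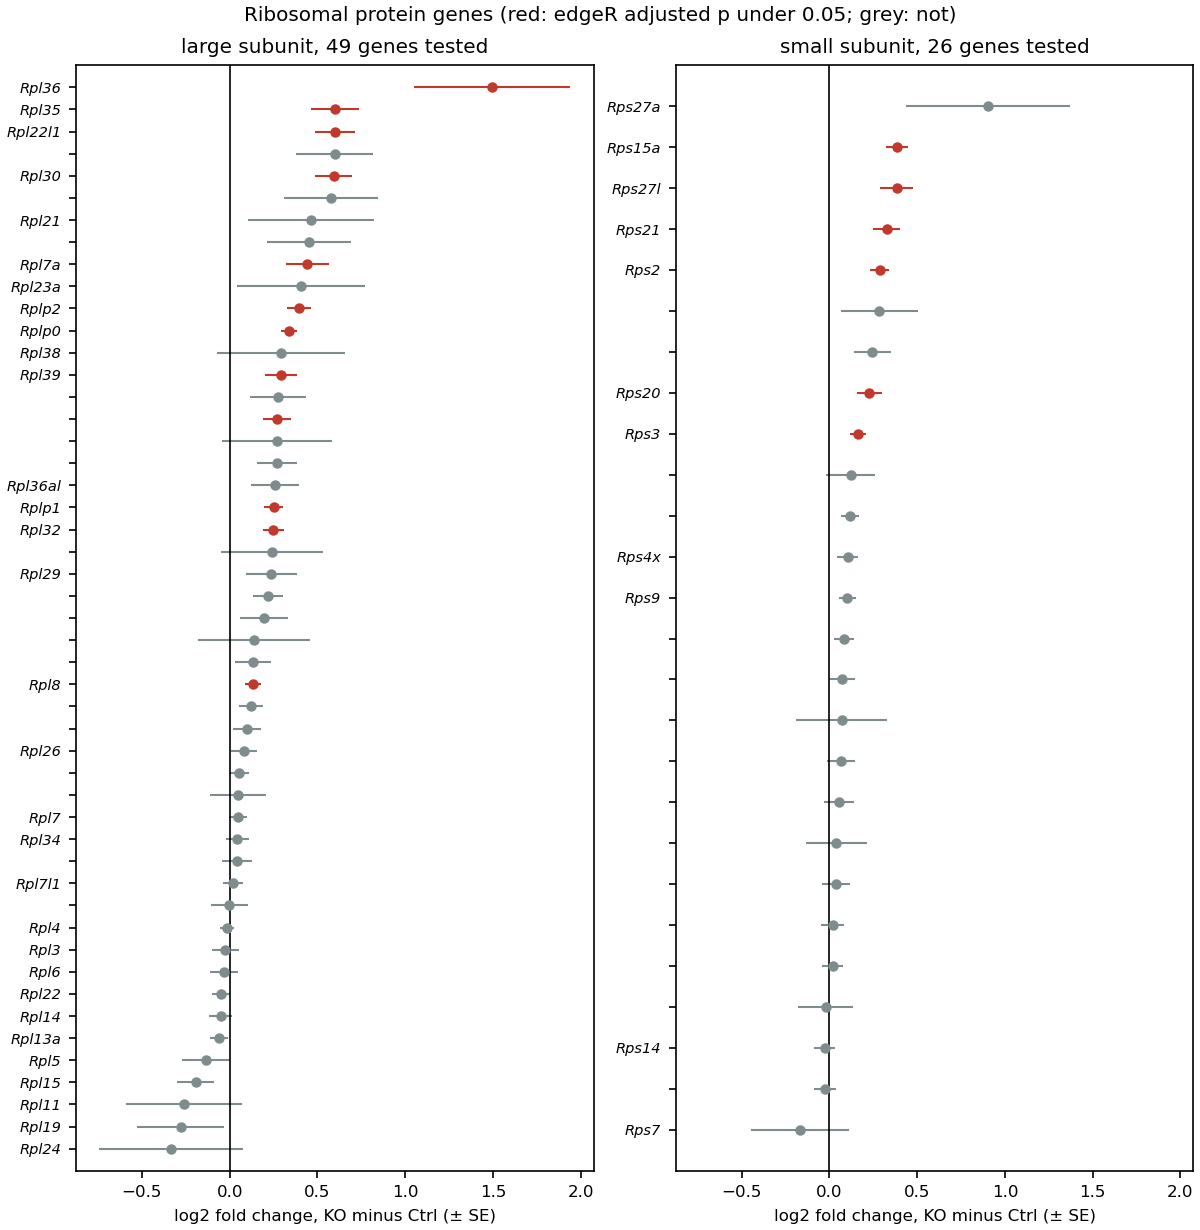
Log2 fold change of each tested ribosomal protein gene, AclyM-KO minus Ctrl, for the large subunit (left, 49 genes) and the small subunit (right, 26 genes). Points are edgeR estimates, bars are 1 SE and red marks an adjusted p under 0.05. Labels are given for most genes whose values the text describes. All 18 red points lie to the right of 0, and the widest bars belong to genes with few counts, such as *Rpl36* and *Rps27a*.

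Other transcripts moved with the groups as well. The summed level of 10 macrophage markers was 15150 to 16730 CPM in Ctrl and 12380 to 12930 CPM in AclyM-KO, with *Lyz2* the most abundant, 7 markers lower and 1, *Adgre1*, higher, beside 12.6% lower and 12.4% higher among all genes tested. *Lyz2*, whose locus drives the Cre that AclyM-KO mice carry, had 6595 ± 515 and 4142 ± 120 CPM (SD, n = 3 each) and made up most of the fall. The other 9 macrophage markers summed to 9059 to 9607 CPM in Ctrl and 8283 to 8727 CPM in AclyM-KO. The 11 neutrophil markers summed to 34.1, 34.5 and 36.4 CPM in Ctrl and 68.8, 64.5 and 64.6 CPM in AclyM-KO, with *Mmp8* the most abundant and 3 of the 5 tested, *Mmp8*, *S100a8* and *S100a9*, higher. Dendritic cell markers summed to at most 4.25 CPM, lymphocyte markers to at most 3.24 CPM (2.62 to 3.24 in Ctrl and 1.51 to 2.25 in AclyM-KO), fibroblast markers to at most 1.30 CPM and erythroid markers to at most 1.02 CPM in any library. *Hba-a1*, *Hba-a2*, *Hbb-bs*, *Hbb-bt*, *Ncr1* and *Lum* were at 0 counts in all libraries. *Cd79b*, the most abundant lymphocyte marker, was called lower, with a log2 fold change of -0.93 and an edgeR adjusted p of 0.0138. The part of these shifts in the ribosomal protein difference was not tested. In these bulk samples, fewer cells of a type and less RNA per cell cannot be told apart.

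The acidic stalk of the large subunit, formed by Rplp0 with Rplp1 and Rplp2, recruits the translation factors that hydrolyse GTP. All 3 stalk genes were higher in AclyM-KO. *Rplp0* had 322, 305 and 305 CPM in Ctrl and 393, 395 and 388 CPM in AclyM-KO, and had the lowest adjusted p of the ribosomal protein genes, 6.67e-05 by edgeR, with a log2 fold change of 0.34 ± 0.05 (SE). *Rplp1* had 218, 206 and 198 CPM in Ctrl and 239, 245 and 256 CPM in AclyM-KO. Its log2 fold change was 0.25 ± 0.05 (SE) with an edgeR adjusted p of 0.00245. *Rplp2* had 39.9, 35.2 and 34.8 CPM in Ctrl and 48.9, 47.4 and 48.6 CPM in AclyM-KO. Its log2 fold change was 0.40 ± 0.07 (SE) with an edgeR adjusted p of 0.000485. None of the 3 genes overlapped between the groups, beside 12.4% of all genes tested called higher and 20.5% without overlap in that direction. Their summed level was 554 ± 22.8 CPM in Ctrl and 687 ± 6.02 CPM in AclyM-KO (SD, n = 3 each), which is 1.24 times as high. Per length, *Rplp1* and *Rplp0* had 38830 and 22150 counts per kb over the 6 libraries and *Rplp2* had 3775.

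**Figure D2:**
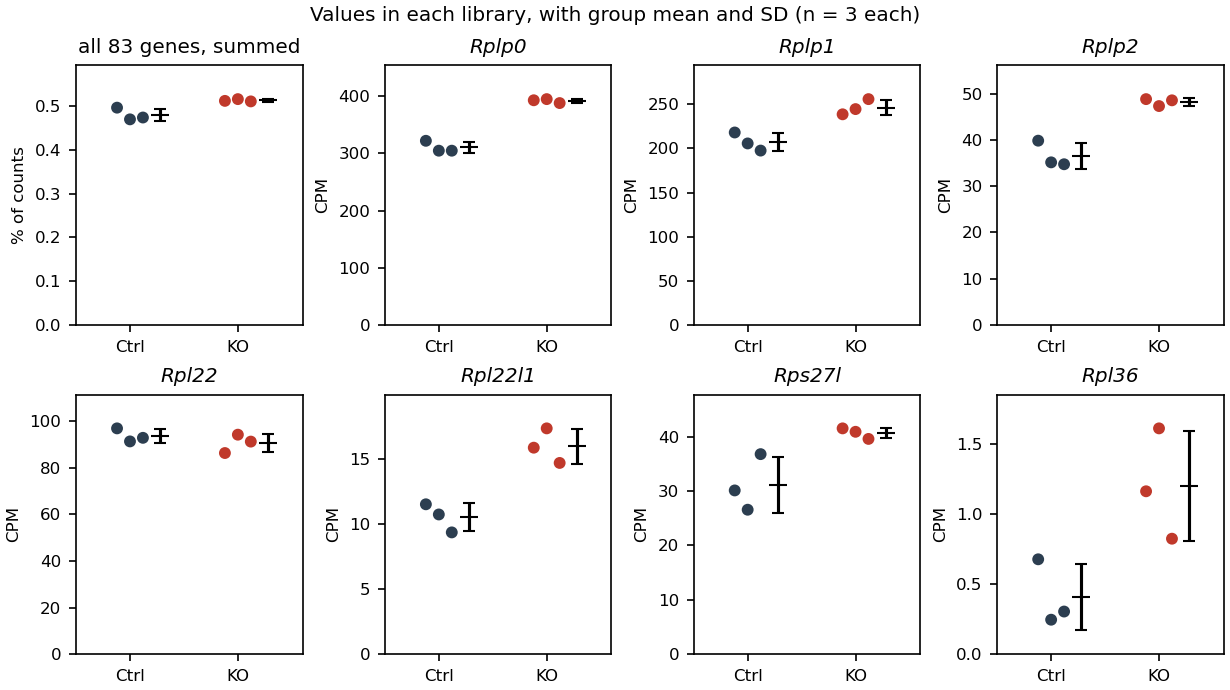
Share of the counts on the kept rows taken by all 83 genes, and CPM of 7 named genes, in each library (dots) with the group mean and SD (bars, n = 3). The 3 stalk genes *Rplp0*, *Rplp1* and *Rplp2*, *Rpl22l1*, *Rps27l* and *Rpl36* show AclyM-KO libraries above all Ctrl libraries, while *Rpl22* overlaps.

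In the large subunit, the other genes called higher included *Rpl7a*, *Rpl8*, *Rpl22l1*, *Rpl30*, *Rpl32*, *Rpl35*, *Rpl36* and *Rpl39*. *Rpl30* had 17.5, 12.7 and 15.9 CPM in Ctrl and 23.3, 23.7 and 22.8 CPM in AclyM-KO. The groups were well apart, with a log2 fold change of 0.59 ± 0.10 (SE) and an edgeR adjusted p of 0.000685. *Rpl35*, whose product sits at the exit of the peptide tunnel, had 11.3, 8.51 and 9.0 CPM in Ctrl and 13.2, 17.2 and 13.3 CPM in AclyM-KO. Its log2 fold change of 0.60 ± 0.14 (SE) had an edgeR adjusted p of 0.00526, and AclyM-KO library 2 stood above the other libraries. *Rpl36* had the highest log2 fold change, 1.49 ± 0.44 (SE, edgeR adjusted p = 0.0227), but rested on 10, 3 and 4 counts in Ctrl and 17, 25 and 12 counts in AclyM-KO. It passed the filter only through the AclyM-KO libraries, so its difference is given as a description. Its adjusted p was 0.0503 with DESeq2 and rose to 0.121 without AclyM-KO library 2. At the other end, *Rpl8* had 366 ± 10.3 CPM in Ctrl and 401 ± 5.90 CPM in AclyM-KO (SD, n = 3 each). Its log2 fold change of 0.13 lost its call when library totals were used without TMM scaling (adjusted p = 0.0728 by edgeR) and in 5 of the 6 fits without 1 library, with adjusted p-values of up to 0.150. *Rpl7a* and *Rpl39* each lost their call in 3 of these 6 fits, at edgeR adjusted p-values of up to 0.0814 and 0.154, and the fit without AclyM-KO library 2 was among them for both genes. *Rpl12* (0.60), *Rpl17* (0.58), *Rpl21* (0.46) and *Rpl9* (0.45) had high log2 fold changes but were not called, at edgeR adjusted p-values of 0.0606 to 0.383.

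In the small subunit, *Rps2*, *Rps3*, *Rps15a*, *Rps20*, *Rps21* and *Rps27l* were called higher. *Rps15a* had 49.7, 45.2 and 43.3 CPM in Ctrl and 62.2, 61.1 and 57.6 CPM in AclyM-KO. Its log2 fold change was 0.39 ± 0.06 (SE), with an edgeR adjusted p of 0.000385, and the groups did not overlap. *Rps2*, near the channel through which mRNA enters, had 76.8, 71.7 and 70.2 CPM in Ctrl and 90.6, 85.3 and 90.9 CPM in AclyM-KO. This was a log2 fold change of 0.29 ± 0.05 (SE) with an edgeR adjusted p of 0.00123. *Rps3*, a protein of the same entry channel, changed least among these, from 341 ± 14.6 to 381 ± 0.668 CPM (SD, n = 3 each), or by 0.16 on the log2 scale. *Rps3* lost its call when any 1 of the AclyM-KO libraries was left out (edgeR adjusted p up to 0.0753), and *Rps20* lost it in every fit without 1 library except that without Ctrl library 3 (up to 0.101). *Rps27a*, with 4 to 30 counts per library, had a log2 fold change of 0.90 ± 0.47 (SE) and was not called. It passed the filter only through the AclyM-KO libraries, and its value was 0.45 without AclyM-KO library 2 and 1.485 without Ctrl library 3.

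No ribosomal protein gene was called lower. The lowest log2 fold changes were -0.33 for *Rpl24*, -0.28 for *Rpl19*, -0.26 for *Rpl11*, -0.19 for *Rpl15*, -0.17 for *Rps7* and -0.14 for *Rpl5*. *Rpl5* and *Rpl11*, whose products bind Mdm2 outside the ribosome, had log2 fold changes of 0.03 and 0.10 without Ctrl library 1, and *Rps7* had 0.0066 without AclyM-KO library 1. *Rpl11* and *Rps7* rested on 14 to 39 counts per library. *Rpl24* rested on 8 to 23 counts, and its value was -0.99 without AclyM-KO library 2 and -0.10 without AclyM-KO library 1 or 3. *Rpl15* was measured more precisely, at 14.9, 15.5 and 16.5 CPM in Ctrl and 13.2, 12.5 and 15.4 CPM in AclyM-KO. These ranges overlapped, and its edgeR adjusted p was 0.203. Among the abundant genes, *Rpl4*, which lines the peptide tunnel, had 531 ± 6.71 and 526 ± 3.05 CPM (SD, n = 3 each). Its log2 fold change was -0.02 ± 0.04 (SE). *Rpl13a* (-0.06 ± 0.05) and *Rps14* (-0.03 ± 0.06, log2 fold change ± SE) did not pass either.

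Related genes were set side by side. *Rpl22*, an RNA-binding protein of the large subunit, had 97.0, 91.4 and 92.9 CPM in Ctrl and 86.4, 94.3 and 91.3 CPM in AclyM-KO, with a log2 fold change of -0.05 ± 0.05 (SE). Its paralog *Rpl22l1* had 11.5, 10.7 and 9.34 CPM in Ctrl and 15.8, 17.3 and 14.7 CPM in AclyM-KO. *Rpl22l1* did not overlap between the groups and rose by 0.60 ± 0.11 (SE) on the log2 scale, with an edgeR adjusted p of 0.00128. The difference between the paralogs was not tested. *Rpl7* (0.05 ± 0.05) and *Rpl7l1* (0.02 ± 0.06, log2 fold change ± SE) both overlapped between groups. *Rps27l*, a paralog of *Rps27* known as a p53 target, had 30.1, 26.6 and 36.8 CPM in Ctrl and 41.6, 40.9 and 39.6 CPM in AclyM-KO. All AclyM-KO values were above the Ctrl values, by 0.38 ± 0.09 (log2 fold change ± SE, edgeR adjusted p = 0.00697), and the Ctrl libraries were spread more widely. *Rps27* itself had 3 to 9 counts per library and was not tested. *Rpl36al* reached 0.26 ± 0.13 (log2 fold change ± SE, edgeR adjusted p = 0.179), while *Rpl36a* had 3 to 10 counts. The X-linked *Rps4x* had a log2 fold change of 0.11 ± 0.06 (SE), which was 0.03 without Ctrl library 3 and 0.16 without Ctrl library 1. Its non-coding relative *Rps4l*, outside the 83 genes, had 1.68 ± 0.185 and 0.958 ± 0.2997 CPM (SD, n = 3 each), which did not overlap but did not pass (edgeR adjusted p = 0.0728).

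The annotated transcription start was examined because TOP mRNAs begin with pyrimidines there. Mouse GRCm38.p6 promoter windows of 250 bases before to 50 bases after a RefSeq start were found for 63 of the 83 genes (74 windows). The 20 without one included *Rpl3*, *Rpl7*, *Rpl8*, *Rpl17*, *Rpl21*, *Rpl23a*, *Rpl29*, *Rpl30*, *Rpl32*, *Rpl36*, *Rplp1*, *Rps14*, *Rps20*, *Rps27a* and *Rps29*. The 30 bases around the start, 15 on each side, are given here for called and uncalled genes, 5′ to 3′ on the strand of the gene. Capitals mark the longest run of C and T that overlaps the positions from 5 before to 5 after the start, and the runs of *Rpl13a* and *Rpl4*, 14 bases each, continue past the bases printed. The first 5 genes were called higher and carry a run of at least 8 bases, *Rplp0* was called higher with a shorter run, *Rpl13a* and *Rpl4* carry a long run without a call, and *Rpl22* has neither.
Rplp2 (chr7:141447636-141447665, plus strand): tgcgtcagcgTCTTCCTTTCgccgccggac
Rpl35 (chr2:39005117-39005146, minus strand): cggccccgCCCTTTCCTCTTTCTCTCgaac
Rpl22l1 (chr3:28805493-28805522, plus strand): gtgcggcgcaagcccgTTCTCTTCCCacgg
Rpl7a (chr2:26910792-26910821, plus strand): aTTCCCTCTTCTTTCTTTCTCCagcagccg
Rps15a (chr7:118116133-118116162, minus strand): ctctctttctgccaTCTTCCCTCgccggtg
Rplp0 (chr5:115559452-115559481, plus strand): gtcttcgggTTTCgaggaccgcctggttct
Rpl13a (chr7:45128731-45128760, minus strand): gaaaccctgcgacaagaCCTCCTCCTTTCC
Rpl4 (chr9:64173372-64173401, plus strand): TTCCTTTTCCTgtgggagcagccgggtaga
Rpl22 (chr4:152324421-152324450, plus strand): cgctgcttctggaatgTTCCagctcccact

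The run in *Rplp2* was 10 bases long, that in *Rpl35* 18 bases and that in *Rpl7a* 21 bases, while *Rplp0* and *Rpl22* had 4 bases at these starts. A TOP-like run of at least 8 bases was present in 24 of the 74 windows, or 32.4%, against 9.72% of all 32851 promoter windows of the table. These shares depend on the annotated starts, and each start of a gene with several was counted apart. Such a run was present in 46.2% of 13 windows of 11 genes called higher, out of 18 called. It was present in 30.9% of 55 windows of 46 genes tested and not called. The core CCGGAAG of ETS factors such as Gabpa, searched on both strands, was in 35.1% of the windows and in 8.86% of all promoters. The YY1 core AAGATGG, searched likewise, was in 16.2% and 6.34%. Mitochondrial ribosomal protein genes had TOP-like runs in 9.33%, CCGGAAG in 34.7% and AAGATGG in 17.3% of their 75 windows. These matches are descriptions of sequence and say nothing of binding.

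The counts of these genes were very uneven. The deposited counts per kb of transcript, summed over the 6 libraries, ran from 22.4 for *Rps23* to 38830 for *Rplp1*. High values were also found for *Rpl8* (38430), *Rpl4* (29200) and *Rps14* (25010), and the lowest were *Rps23*, *Rps16* (52.3) and *Rps29* (61.5). *Rps23*, which helps the small subunit decode, had 2 to 5 counts per library. Transcript sequence shared with annotated pseudogenes was therefore measured in words of 50 bases. In the median ribosomal protein gene, 45.7% of the words were also found in pseudogenes, from 8 pseudogenes per gene, against 0% for mitochondrial ribosomal protein genes. *Rpl7a* shared words with 121 pseudogenes, *Rpl21* and *Rpl29* with 81 each and *Rps2* with 71, whereas *Rps3*, *Rplp2*, *Rpl8*, *Rpl4*, *Rps9* and *Rpl14* shared words with 1 each. Counts per kb fell with the shared fraction (Spearman's rho = -0.37 over 82 genes, a description across genes that share libraries). The log2 fold change showed hardly any relation to it (rho = -0.07 over 74 genes). Called genes made up 5 of 9 genes with under 10% shared words, 9 of 31 tested genes with 10% to under 50%, and 4 of 34 tested genes with 50% or more, the last a share near the 12.4% of all genes tested. These classes depend on the transcript paired with each gene, since a longer one lowers the shared fraction. *Rps15a* (5.65%) and *Rps20* (7.22%), called genes of the lowest class, were paired with transcripts of 5179 and 3706 bases. The median over the tested ribosomal protein genes was 831.5 bases. In the class with 50% or more, which includes *Rpl36*, *Rpl7a*, *Rps2* and *Rpl22l1*, reads of the gene and of its pseudogenes may have been split by the counting, and their values are uncertain. *Rpl26* had the same counts as *Gm15772* in all libraries, *Rpl34* the same as *Rpl34-ps1* and *Rps27* the same as *Rps27rt*, so these cannot be told apart.

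**Figure D3:**
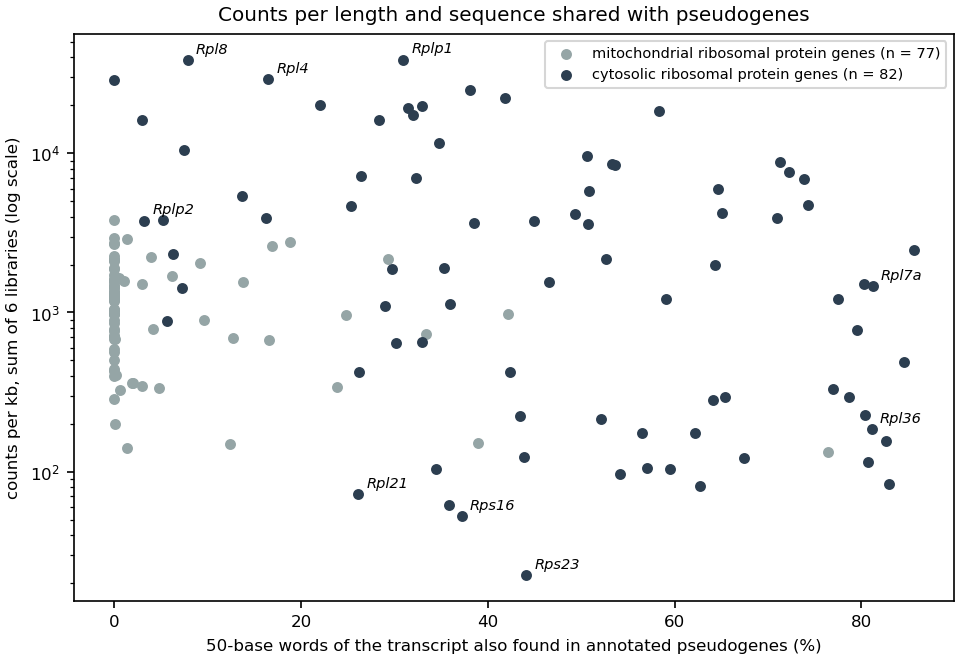
Counts per kb of transcript (sum of 6 libraries, log scale) against the percentage of 50-base words of the transcript also found in annotated pseudogenes, for 82 cytosolic (dark) and 77 mitochondrial (grey) ribosomal protein genes. The 3 genes with the fewest counts per kb, *Rps23*, *Rps16* and *Rps29*, share 35.8% to 44.1% of their words, while *Rpl8*, with 7.86% shared, has 38430 counts per kb. Both axes depend on the length of the transcript paired with each gene.

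Few of the genes with low counts were called, and the counts that follow stand beside the 12.4% called higher among all genes tested. Of 17 tested genes with under 50 counts in at least 1 library, 1, *Rpl36*, was called higher (median log2 fold change 0.28, SEs of 0.22 to 0.47). The class holds the 5 genes that passed the filter through 1 group only, and without them the median over 12 genes was 0.26. Of 29 genes with 50 to under 500 counts in the lowest library, 9 were called higher (median log2 fold change 0.22), and of 29 with 500 or more, 8 were called higher (median 0.07, SEs of 0.04 to 0.08). Within a group, the SD of log2 CPM between libraries was 0.135 for the median ribosomal protein gene and 0.106 for the median gene tested. For genes with 500 or more counts in each library it was 0.0725 and 0.0628. The median deviation of ribosomal protein genes from the Ctrl mean was 0.08, -0.05 and -0.02 on the log2 scale in Ctrl libraries 1 to 3 and 0.14, 0.15 and 0.10 in the AclyM-KO libraries.

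Short transcripts as a class were somewhat higher in AclyM-KO. Among other genes tested, the median log2 fold change was 0.06 for 885 transcripts of up to 1000 bases, of which 133 (15.03%) were called higher, and -0.04 for transcripts over 6000 bases. The 51 tested ribosomal protein genes of up to 1000 bases had a median of 0.12, and 13 of them (25.5%) were called higher, beside 12.4% of all genes tested. The trend of log2 fold change on transcript length over the other genes tested was then subtracted, an alternative chosen after seeing the data. The median over the ribosomal protein genes was 0.05 in place of 0.12. The part of transcript length in the difference was not tested further.

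**Figure D4:**
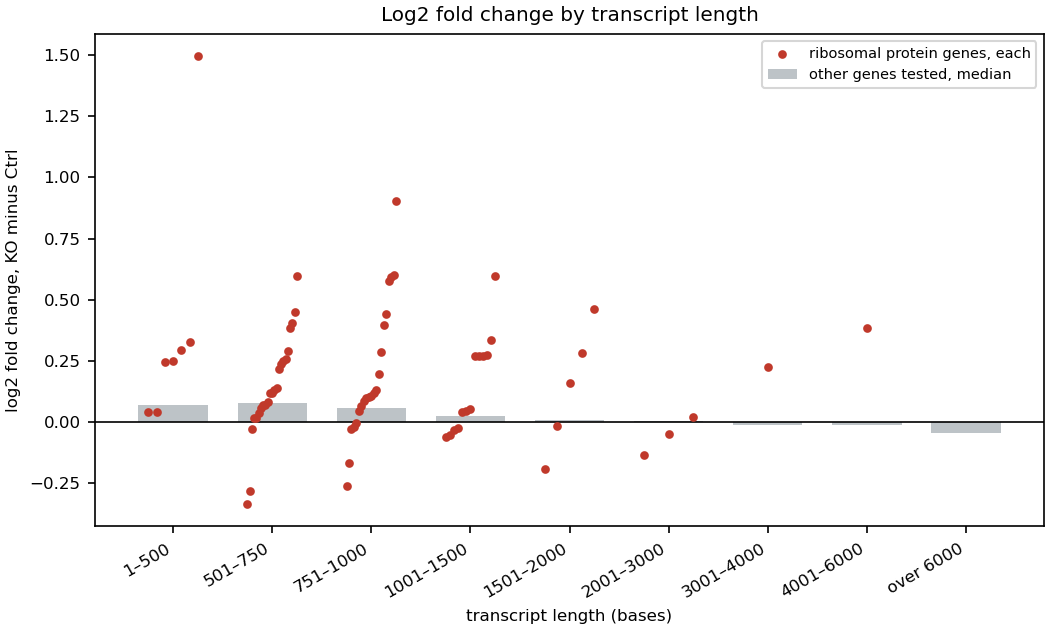
Log2 fold change, AclyM-KO minus Ctrl, by transcript length in bases. Grey bars are the median of the other genes tested in each length class, falling from 0.07 at up to 500 bases to -0.04 at over 6000 bases, and red points are single ribosomal protein genes, most of which lie in the 3 shortest classes.

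The rest of the translation machinery was described with lists drawn up for their roles. *Fau* and *Rack1*, which encode ribosomal proteins under other names, had log2 fold changes of 0.32 and 0.14, and neither was called. The scaffold protein gene *Rack1* had 542, 485 and 557 CPM in Ctrl and 584, 577 and 588 CPM in AclyM-KO. Of 20 other TOP mRNAs, 6 (30%) were called higher and 1 lower (median 0.10), beside 12.4% and 12.6% of all genes tested. They included the cytoskeletal gene *Vim*, at 3137 ± 279 and 3726 ± 251 CPM, *Ybx1*, which encodes an mRNA-binding protein, at 389 ± 9.76 and 433 ± 5.96 CPM, and *Eef1a1*, which delivers aminoacyl-tRNA, at 1425 ± 62.6 and 1560 ± 18.1 CPM (SD, n = 3 each). The gene called lower was *Eif4b*. Of 8 elongation factors, 2 were called higher, *Eef1a1* and *Eef1d*, and 0 lower (median 0.05).

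Of 30 initiation factors, 4 (13.3%) were called higher and 3 lower (median 0.05), a share called higher that was near the 12.4% of all genes tested. *Eif5*, which activates the GTPase of the initiation complex at the start codon, had the lowest adjusted p, with 206, 189 and 206 CPM in Ctrl and 353, 343 and 337 CPM in AclyM-KO. The groups were far apart, with a log2 fold change of 0.78 ± 0.05 (SE) and an edgeR adjusted p of 4.98e-08. *Eif1*, which guards start codon choice, rose by 0.53 ± 0.06 and *Eif4g2*, a relative of the scaffold Eif4g1, by 0.38 ± 0.04 (log2 fold change ± SE). *Eif3k*, *Eif4b* and *Eif5b* were lower, with log2 fold changes of -0.15 to -0.16.

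Genes that build ribosomes were also described. Of 44 assembly factors, 10 (22.7%) were called higher and 1, *Nop16*, lower (median 0.11), beside 12.4% and 12.6% of all genes tested. *Ddx21*, a nucleolar helicase, had a log2 fold change of 0.32 ± 0.05, *Bop1*, of the complex that matures the large subunit, 0.36 ± 0.07 and *Ncl*, which encodes nucleolin, 0.24 ± 0.05 (SE). Of 17 tested subunits and factors of RNA polymerase I, which transcribes ribosomal RNA, *Rrn3* was called higher (0.22 ± 0.07) and *Cd3eap* lower (-0.30 ± 0.09, log2 fold change ± SE). Of 21 mTORC1 and TOP mRNA regulators, 5 (23.8%, beside 12.4% of all genes tested) were called higher and 1 lower (median 0.03). The lowest adjusted p-values of this list belonged to *Mlst8*, *Akt1s1* and *Cnbp*. *Mlst8*, an mTOR complex subunit, rose by 0.43 ± 0.09 (log2 fold change ± SE). *Deptor*, an mTOR inhibitor named after its value was seen, had -0.34 ± 0.09 (log2 fold change ± SE). *Mtor* (-0.19, edgeR adjusted p = 0.0561) and *Larp1* (-0.05, edgeR adjusted p = 0.474) were not called. Of 10 tested chaperones of ribosomal proteins and nascent chains, *Hspa8* was called higher, with 148, 158 and 143 CPM in Ctrl and 178, 175 and 171 CPM in AclyM-KO.

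Mitochondrial ribosomal proteins are encoded by a separate gene family. Of 78 tested genes, a list added after the data had been seen, 13 were called higher, or 16.7%, and 0 lower by edgeR (median 0.07), beside 12.4% higher and 12.6% lower among all genes tested. The highest were *Mrps6*, from 10.4 ± 1.01 to 17.6 ± 0.811 CPM, and *Mrpl54*, from 14.7 ± 0.374 to 22.9 ± 0.786 CPM (SD, n = 3 each). Their summed share of the counts on the kept rows was 0.139% ± 0.00323 in Ctrl and 0.147% ± 0.00063 in AclyM-KO (SD, n = 3 each), a ratio of 1.05 beside 1.07 for the cytosolic genes. The difference between the families was not tested.

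**Figure D5:**
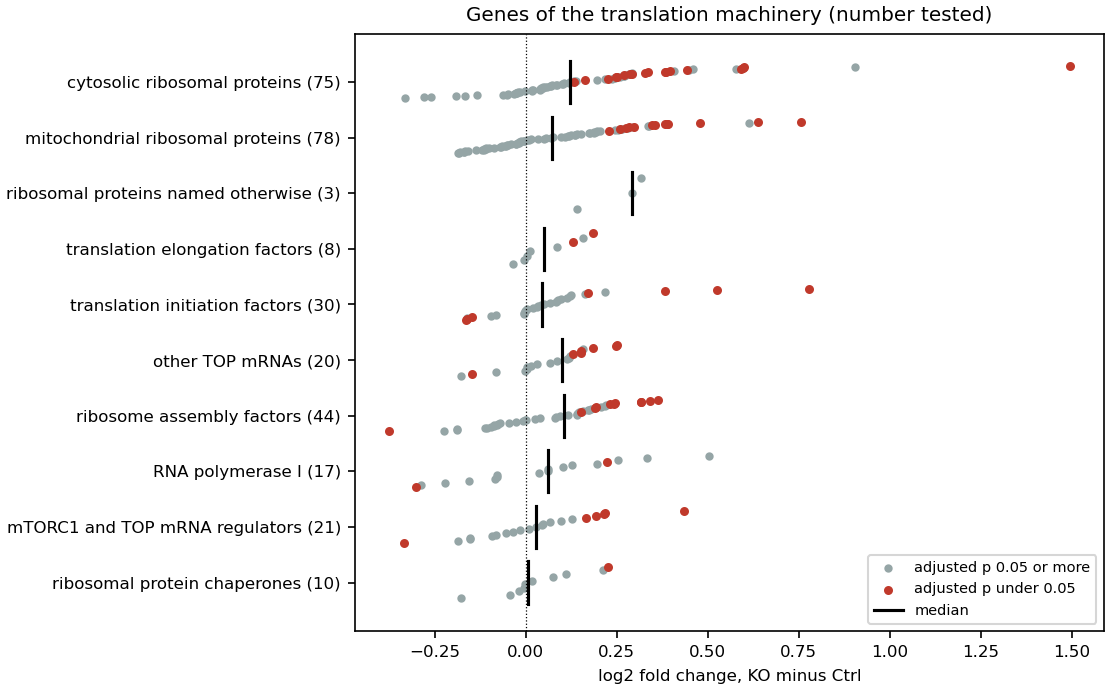
Log2 fold change, AclyM-KO minus Ctrl, of each tested gene in 10 groups of the translation machinery, with the number tested in brackets. Red marks an adjusted p under 0.05 and the black line is the group median, which is 0.12 for cytosolic and 0.07 for mitochondrial ribosomal proteins.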

How the data were processed

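Strand-specific libraries of mRNA were made by the authors. STAR 2.5.2b served for alignment to mm10, and CASAVA 1.8.2 is also listed in the submitters' processing notes. The deposited values are raw counts, 1 row per RefSeq transcript. The counting program is not given in the sources used here. Naive BMDMs were not analysed here, and some genes are not reported here by name. All columns were mapped to samples.

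Rows were paired with symbols through RefSeq (GRCm38.p6, 35435 rows) and GENCODE (193 rows). The 117 rows without a gene, 0.370% to 1.38% of the counts on all rows, were left out. The row with most counts was kept per gene. Ribosomal protein genes, gene lists and the rule for named genes were chosen with earlier results of these data known. That rule takes *Acly*, the 10 highest and 10 lowest log2 fold changes, the 5 most and 3 least abundant genes per length, paralog pairs and the 3 genes with the lowest adjusted p of each list. Other genes named, including the remaining called ribosomal protein genes, were chosen after their values were seen.

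Counts were tested over 12023 genes by the quasi-likelihood test of edgeR 4.0.16 (R 4.3.3) after filterByExpr and TMM scaling, in a model of genotype alone. P-values were adjusted over all of these genes by the Benjamini-Hochberg method. The script was tested on simulated data. DESeq2 1.42.0 and limma 3.58.1 were alternatives. CPM used TMM-scaled library sizes, shares of counts used unscaled totals of the kept rows, and log2 CPM a prior count of 2. TOP-like runs were required to overlap positions from 5 before to 5 after the start.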

Additional observations from a re-analysis of the deposited data

How the results depend on the processing

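Of the 18 ribosomal protein genes called higher, 11 (*Rplp0*, *Rplp1*, *Rplp2*, *Rpl22l1*, *Rpl30*, *Rpl32*, *Rpl35*, *Rps2*, *Rps15a*, *Rps21* and *Rps27l*) stayed past the threshold in all 16 alternative fits and 7 were lost in some. *Rps3*, *Rps20*, *Rpl7a* and *Rpl39* were lost only when a library was left out, *Rpl36* also with DESeq2 and *Rpl8* also with library totals, without the filter and with the replicate block. *Rpl12* gained a call without the filter (edgeR adjusted p = 0.0436), and *Rpl17* gained one without AclyM-KO library 1 (edgeR adjusted p = 0.0469). The number called higher ran from 11 to 17 over the 6 fits that leave out 1 library, lowest without AclyM-KO library 2, and the number called lower was 0 in each of these fits. The number called higher was 4 with the fold change limit and 17 to 18 under the other normalizations, filters and tools, and 16 without the paralogs and retrogenes. The median log2 fold change was 0.12 to 0.16 in these 6 fits and 0.0487 with the length trend subtracted. Leaving out single libraries gave log2 fold changes of -0.50 to 0.10 for *Rpl11*, -0.35 to 0.0066 for *Rps7*, -0.23 to 0.031 for *Rpl5*, -0.11 to 0.023 for *Rpl6*, -0.10 to 0.0066 for *Rps14* (0.0046 without Ctrl library 1), -0.095 to 0.0080 for *Rpl14*, -0.079 to 0.061 for *Rpl3* and -0.028 to 0.057 for *Rpl7l1*, none of them called. The causes were not tested.

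Replicate numbers did not pair the libraries, with correlations of deviations of -0.065, 0.050 and -0.031 between same-numbered libraries. With the replicate block, 17 genes were called higher and 0 lower, and the median was 0.12. Ribosomal protein genes with under 50 counts in a library had SEs of at least 0.22 on the log2 scale, so a change of 0.12 in a single such gene was not detectable.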
